A study of Homo sapiens with 8 samples.

Results

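Interferon-stimulated genes were followed as a list of 46 gene symbols, which holds antiviral effectors, RNA sensors and the transcription factors that switch them on. The members were found by matching these symbols to the rows of both count tables of the study. All 46 were listed in the table of the siRNA experiment, among 42125 genes, and all 46 in that of the shRNA experiment, among 23393 genes. MHC class I genes were left out of the list.

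The study sequenced mRNA of the human colorectal cancer line HCT116 in 8 libraries, with 2 libraries in each of 4 groups. Every group carried a stable Tet-On shSAE2, an shRNA against UBA2 (also named SAE2) that doxycycline (Dox) switches on. In the siRNA experiment these cells were transfected with lipid and either control siRNA or TFAP2C siRNA, and taken after 48 hrs. In the shRNA experiment they received DMSO, or Dox at 1 μg/mL, for 5 days. Because the DMSO control group had no Dox, the shRNA and the drug that induces it cannot be told apart, and no group held another shRNA. TFAP2C is a transcription factor of the AP-2 family, and UBA2 is a subunit of the enzyme that activates SUMO for SUMOylation, the attachment of this small protein to others.

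Interferons are secreted proteins that cells release when they sense viral nucleic acid. Binding of type I interferon to the receptors IFNAR1 and IFNAR2 activates the kinases JAK1 and TYK2, and a complex of STAT proteins with IRF9 then binds the interferon-stimulated response element (ISRE) in promoters of target genes. Epithelial cells also keep a low level of many of these transcripts without added interferon, and loss of SUMOylation is known to raise interferon genes in other cells.

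The promoters of the 5 members on which the results below turn were read from RefSeq (GRCh38.p14), each from 250 bases before the start of transcription to 50 bases after it. They are shown because 4 of these genes were lower in at least 1 knockdown and ISG15 differed between the knockdowns. The IFIT1 window is chr10:89392373-89392672 on the plus strand, that of ISG15 is chr1:1013247-1013546 on the plus strand, and that of UBE2L6 is chr11:57567886-57568185 on the minus strand. The HERC6 window is chr4:88378602-88378901 and the PSMB9 window is chr6:32853942-32854241, both on the plus strand. Capitals mark the letters of an ISRE core, searched as GAAANNGAAA on both strands.
IFIT1: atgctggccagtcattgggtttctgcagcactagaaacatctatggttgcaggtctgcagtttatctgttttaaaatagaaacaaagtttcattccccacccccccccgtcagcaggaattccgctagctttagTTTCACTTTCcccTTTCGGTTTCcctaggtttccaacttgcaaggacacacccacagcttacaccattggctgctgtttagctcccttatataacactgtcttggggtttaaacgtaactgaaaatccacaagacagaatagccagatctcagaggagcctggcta
ISG15: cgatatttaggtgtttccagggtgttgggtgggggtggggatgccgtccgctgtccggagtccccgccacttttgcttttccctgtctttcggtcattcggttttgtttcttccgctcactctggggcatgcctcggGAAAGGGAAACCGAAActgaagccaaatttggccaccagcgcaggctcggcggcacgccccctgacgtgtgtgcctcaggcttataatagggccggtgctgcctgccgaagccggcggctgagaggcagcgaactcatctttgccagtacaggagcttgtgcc
UBE2L6: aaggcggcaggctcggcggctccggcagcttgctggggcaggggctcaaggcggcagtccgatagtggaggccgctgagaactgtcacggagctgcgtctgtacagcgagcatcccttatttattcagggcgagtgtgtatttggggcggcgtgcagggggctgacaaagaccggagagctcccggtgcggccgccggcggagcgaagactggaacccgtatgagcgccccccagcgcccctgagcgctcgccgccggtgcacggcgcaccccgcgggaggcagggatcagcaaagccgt
HERC6: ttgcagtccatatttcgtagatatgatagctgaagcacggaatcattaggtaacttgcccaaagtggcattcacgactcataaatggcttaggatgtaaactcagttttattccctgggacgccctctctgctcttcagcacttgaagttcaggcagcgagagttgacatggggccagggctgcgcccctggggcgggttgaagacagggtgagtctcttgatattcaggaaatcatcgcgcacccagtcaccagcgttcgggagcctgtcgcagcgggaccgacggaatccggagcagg
PSMB9: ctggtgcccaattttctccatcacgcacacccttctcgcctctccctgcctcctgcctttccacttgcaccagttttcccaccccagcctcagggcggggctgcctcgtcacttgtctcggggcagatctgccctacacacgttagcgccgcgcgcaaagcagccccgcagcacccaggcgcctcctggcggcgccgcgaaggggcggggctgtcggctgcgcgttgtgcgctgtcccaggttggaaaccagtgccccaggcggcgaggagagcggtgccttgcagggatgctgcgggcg

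The IFIT1 window held the ISRE core at 116 and 103 bases before the start, both on the opposite strand. In ISG15 the core lay at 113 and 107 bases before the start, and these 2 matches overlap. The windows of UBE2L6, HERC6 and PSMB9 did not hold these letters, and neither did a further UBE2L6 window in RefSeq. Over the list, 38 of the 46 members matched a RefSeq promoter, with 51 windows, and 29 windows (56.9%) of 25 genes held the core, against 3.57% of all 35116 windows. A gamma-activated site core, TTCNNNGAA, was in 23.5% of the members' windows and 7.66% of all windows. The AP-2 core GCCNNNGGC was in 23.5% of the members' windows and 23.2% of all windows. It was found in UBE2L6 at 60 bases before the start, in ISG15 at 41 and 3 bases before, and in PSMB9 at 3 bases after. IRF7, DHX58, OAS2, OASL, IFIT2, IFITM2, USP18 and TRIM22 were not matched.

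The libraries of the siRNA experiment held 20785035 to 24465109 counts and those of the shRNA experiment 18213739 to 20607813. The biological coefficient of variation, edgeR's estimate of how much a gene varies between replicate libraries, was 6.28% and 3.56%. The 2 TFAP2C KD libraries stood further apart than any other pair of replicates, with a chi-square per degree of freedom of 9.12 over genes against 2.55 to 2.77 in the other groups. TFAP2C was at 18.9 and 20.5 CPM with control siRNA and at 3.46 and 4.29 CPM in TFAP2C KD, a log2 fold change of -2.34 (adjusted p = 7.67e-06, edgeR). CPM are read counts relative to the total of a library, scaled by edgeR's TMM factors. UBA2 was at 161 and 146 CPM with DMSO and at 147 and 153 CPM with Dox (log2 fold change -0.036, adjusted p = 0.766, edgeR), so the Dox libraries are called the libraries labelled UBA2 KD. The epithelial markers EPCAM, KRT8, KRT18, KRT19 and CDH1 had 1451 to 34971 counts in every library, whereas COL1A2 and DCN had 0 counts in all 8. The leukocyte markers were low, with at most 15 counts for PTPRC and 2 for CD3E, while COL1A1, listed as a fibroblast marker, had 947 to 1157 counts in the siRNA experiment and 269 to 454 in the shRNA experiment. In such bulk samples, fewer cells of a type and less RNA per cell cannot be told apart.

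Members differed widely in level, given here as RPKM (CPM per kilobase of the gene length in the table). In the control siRNA libraries, IFITM3, which blocks the entry of viruses at membranes, was highest at 449.9 ± 18.5 RPKM (SD, n = 2). It was followed by IFI6 at 288 ± 5.97 RPKM, ISG15 at 195 ± 7.72 RPKM, IFITM2 at 69.6 ± 3.96 RPKM and BST2, a tether of virus particles, at 60.1 ± 0.95 RPKM. No pair of neighbours in this order overlapped between libraries. With DMSO the order was IFITM3 at 178 ± 12.8 RPKM, ISG15 at 46.6 ± 1.85 RPKM, IFITM2 at 40.8 ± 0.828 RPKM, EIF2AK2 at 18.2 ± 1.74 RPKM and STAT2 at 10.0 ± 0.307 RPKM. These 5 did not overlap between libraries either, but STAT2 at 9.79 and 10.2 RPKM overlapped IFIT5 below it at 9.88 and 9.37 RPKM. IFI6 and BST2, which were among the highest with control siRNA, were at 4.95 ± 0.204 and 0.303 ± 0.138 RPKM with DMSO.

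**Figure D1:**
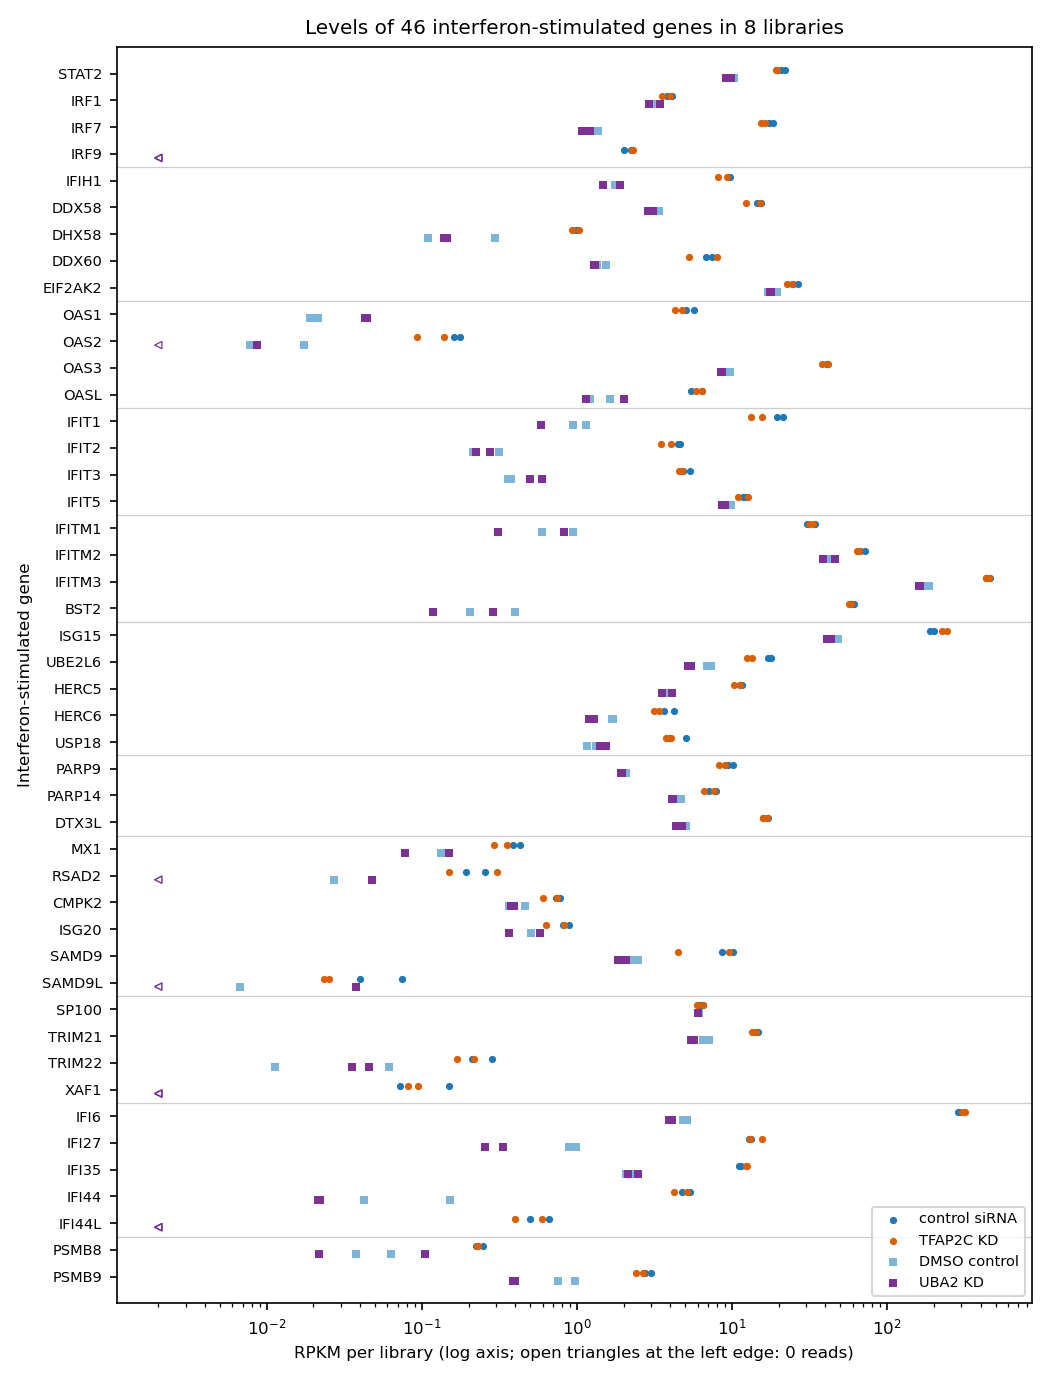
RPKM of the 46 interferon-stimulated genes (log axis) in each of the 8 libraries, with genes grouped by role. Circles are the siRNA experiment and squares the shRNA experiment, and open triangles at the left edge are libraries with 0 reads. Circles lie to the right of the squares for most genes, most widely for BST2, IFI6 and OAS1.

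The members together took 0.286% to 0.309% of the counts in the 4 libraries of the siRNA experiment and 0.0638% to 0.0714% in the 4 of the shRNA experiment. Over the symbols in both tables, both control siRNA libraries lay above both DMSO control libraries for 46 of the 46 members, against 45.0% of the 13179 genes past the expression filter. The median log2 ratio of control siRNA to DMSO, with 0.5 CPM added, was 1.998 for the members and -0.0028 for all of those genes. The ratio was at least 1 on the log2 scale for 41 members (89.1%) and for 13.7% of all genes. No test was made between these groups, because the tables were counted separately on different gene annotations, and transfection, days of treatment and table cannot be told apart. BST2 is an example, with 1625 and 1360 counts with control siRNA and 7 and 4 counts with DMSO. IFI6 had 5802 and 5113 counts against 77 and 91. IFI27, a small membrane protein, had 1300 and 1141 counts against 12 and 12.

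Some members were at the limit of detection in the shRNA experiment. IRF9, XAF1 and IFI44L had 0 counts in all 4 of its libraries, and a count of 0 allows up to 3 counts in a library. IRF9, the DNA-binding partner of the STAT proteins, had 205 and 160 counts with control siRNA and 208 and 192 in TFAP2C KD. Its row in the shRNA table overlaps that of RNF31 on the same strand, and whether reads shared by these genes were left uncounted was not tested. OAS1, OAS2, RSAD2, SAMD9L, TRIM22, PSMB8, BST2, IFI44, MX1 and DHX58 were not tested there either, for low counts, so that 33 of the 46 members were tested. In the siRNA experiment 45 members were tested, all but SAMD9L, which had 13 and 6 counts with control siRNA and 4 and 4 in TFAP2C KD.

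In TFAP2C KD, 1 of the 45 members tested passed an adjusted p of 0.05, IFIT1, which was lower, while 0 members were higher with edgeR or DESeq2, which gave no adjusted p for 5 members. The count was 0 without control siRNA replicate 1, 4 without TFAP2C KD replicate 1 and 12 without TFAP2C KD replicate 2. The genes called in all also moved, to 49, 537 and 2825 from 111, and 12 of 46 members (26.1%) compares with 18.2% of all genes in the last of these fits. Of all 14991 genes tested, 0.740% passed, and 0.480% passed as lower. Most members lay slightly below their controls, 38 of 45 with a log2 fold change below 0, a median of -0.12 and a range from -0.53 to 0.27. Over all genes 50.9% lay below 0, and the median was -0.0038. Both knockdown libraries were below both controls for 18 members and above both for 4, and the groups overlapped for 23. Among all genes, 22.3% had both knockdown libraries below both controls. At an unadjusted p under 0.05, IFIT1, UBE2L6, HERC6, IFIT2, OAS1 and PARP9 were lower and ISG15 was higher, 7 of 45 members, a share near the 12.6% of all genes, while 6.92% of all genes were lower at that p. The labels do not say that replicates came from separate cultures, so these p-values measure the spread between the libraries, which may be technical.

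In the libraries labelled UBA2 KD, 4 of the 33 members tested passed, and all 4 fell: IFIT1, UBE2L6, HERC6 and PSMB9. No member passed as higher with edgeR. DESeq2 called 0 members in either direction and gave no adjusted p for 11 of the 33, PSMB9 among them, and leaving out a library gave 1 to 3, with IFIT1 among them each time. Of the 13381 genes tested, 9.98% passed and 4.47% passed as lower, beside 12.1% of the members tested, all lower. The log2 fold change was below 0 for 28 of the 33 members, with a median of -0.12 and a range from -1.63 to 0.58, while 50.1% of all genes were below 0 and their median was -0.00042. Both Dox libraries were below both DMSO libraries for 18 members, above both for 2, and overlapped for 13, where 25.8% of all genes had both below both. SAMD9, TRIM21, IFI27 and IFITM3 were also lower at an unadjusted p under 0.05, which makes 8 of 33 members lower and 0 higher. Of all genes, 22.7% had an unadjusted p under 0.05, so the count in either direction was near that share, and 11.0% had it as lower.

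**Figure D2:**
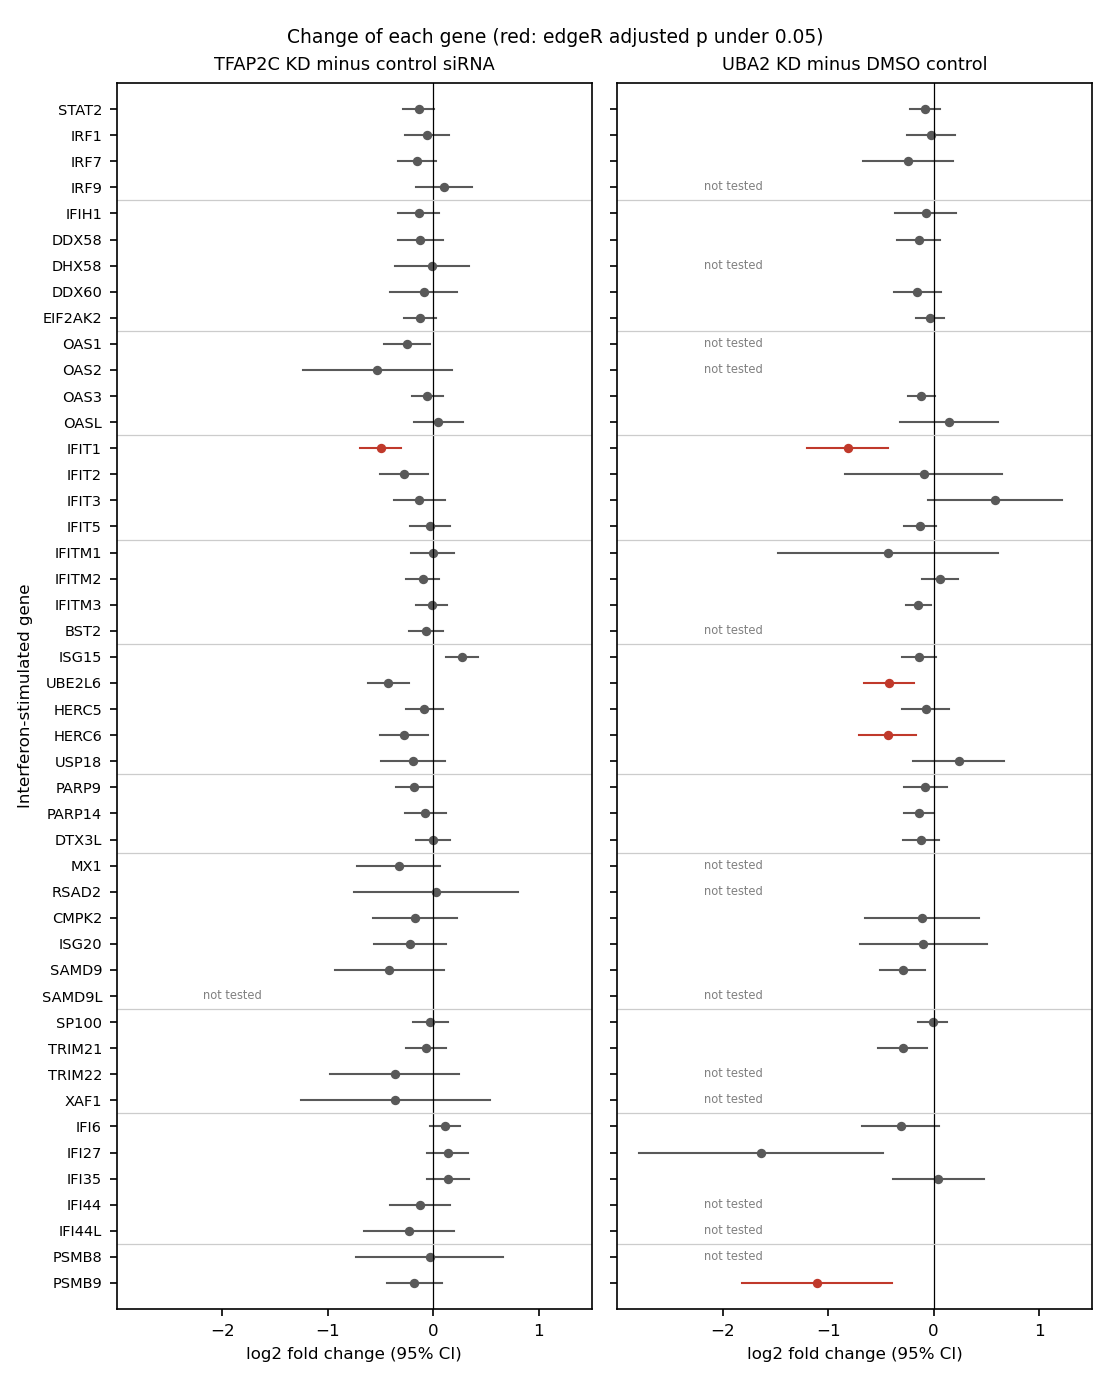
Log2 fold change of each member with its 95% confidence interval in TFAP2C KD against control siRNA (left) and in UBA2 KD against DMSO control (right). Red marks an adjusted p under 0.05 (edgeR). IFIT1 is red in both panels, UBE2L6, HERC6 and PSMB9 in the right one, and 1 and 13 members were not tested.

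IFIT1 binds viral RNA that lacks a full cap and keeps it from being translated. With control siRNA it was at 98.6 and 90.2 CPM, and in TFAP2C KD at 61.2 and 72.4 CPM. Both knockdown libraries were thus below both controls. The log2 fold change was -0.50 (SE 0.090, adjusted p = 0.0262, edgeR's quasi-likelihood test), a fall of 29.3%. Without control siRNA replicate 1 the adjusted p was 0.196, with a log2 fold change of -0.43, and with library sizes not scaled by TMM it was 0.0579. With DMSO, IFIT1 was at 5.39 and 4.45 CPM, and with Dox at 2.78 and 2.79 CPM. It fell by 43.2% (log2 fold change -0.82, SE 0.19, adjusted p = 0.00327, edgeR), and it passed with any of the 4 libraries left out. The Wald test of DESeq2 gave an adjusted p = 0.0959. IFIT1 lies on chromosome 10 from 89392546 to 89406487 (GRCh38), and LIPA is listed over it on the opposite strand in both tables, so reads of the pair could be mixed if strand was not used.

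IFIT2, IFIT3 and IFIT5, its relatives on the same chromosome, did not pass in either knockdown. Their log2 fold changes were -0.28, -0.13 and -0.032 in TFAP2C KD and -0.096, 0.58 and -0.13 in the libraries labelled UBA2 KD. IFIT3 had the highest value of the list there, with 18 and 21 counts with DMSO and 29 and 25 with Dox. Its groups did not overlap, but the adjusted p was 0.273 (edgeR).

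UBE2L6, HERC6 and ISG15 were grouped in the list under ISG15 conjugation, in which the ubiquitin-like protein ISG15 is attached to other proteins. UBE2L6 is the conjugating enzyme of this pathway. It was at 34.9 and 36.8 CPM with control siRNA and at 27.6 and 25.8 CPM in TFAP2C KD, with no overlap. The log2 fold change of -0.43 (SE 0.088) had an adjusted p of 0.0502 (edgeR), just beyond the threshold. It passed with all 8 libraries in 1 fit (adjusted p = 0.00781, edgeR). Without TFAP2C KD replicate 1 or 2 the log2 fold change was -0.48 or -0.37. UBE2L6 passed in both of these fits, which took the spread from the control siRNA libraries alone. Without control siRNA replicate 1 or 2 the log2 fold change was -0.46 or -0.40, and UBE2L6 did not pass. In the shRNA experiment UBE2L6 was at 11.9 and 12.7 CPM with DMSO and at 8.99 and 9.39 CPM with Dox, again with no overlap. It fell there by 25.5% (log2 fold change -0.42, SE 0.12, adjusted p = 0.0157, edgeR). The call was lost with the Wald test of DESeq2 (adjusted p = 0.197). It was also lost without DMSO control replicate 2 (log2 fold change -0.37) and without UBA2 KD replicate 1 (log2 fold change -0.39). The difference between the 2 changes was -0.014 (SE 0.13, adjusted p = 0.990) in a fit of all 8 libraries.

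HERC6 belongs to a family of ubiquitin ligases with HERC5, the main ligase for ISG15 in human cells. It was at 24.3 and 21.1 CPM with control siRNA and at 19.5 and 18.0 CPM in TFAP2C KD, with no overlap (log2 fold change -0.28, SE 0.10, adjusted p = 0.291, edgeR). With DMSO it was at 9.08 and 9.01 CPM and with Dox at 6.44 and 6.93 CPM. It fell by 26.0% (log2 fold change -0.44, SE 0.13, adjusted p = 0.0311, edgeR). Leaving out any of the 4 libraries lost this call, with log2 fold changes from -0.49 to -0.38. The Wald test of DESeq2 (adjusted p = 0.301) and the fit of all 8 libraries (adjusted p = 0.0694, edgeR) lost it too. HERC5 had log2 fold changes of -0.088 and -0.076 in the 2 knockdowns and did not pass. USP18, which removes ISG15, had -0.19 and 0.24 and did not pass either.

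ISG15 itself was at 177 and 188 CPM with control siRNA and at 229 and 212 CPM in TFAP2C KD. Both knockdown libraries were above both controls, the reverse of UBE2L6 and HERC6. The log2 fold change was 0.27 (SE 0.071, adjusted p = 0.135, edgeR) and did not pass. It passed when all 8 libraries were fitted together (adjusted p = 0.0414, edgeR). The replicate block (adjusted p = 0.268, edgeR) and the Wald test of DESeq2 (adjusted p = 0.123) did not call it. Of 12 alternatives, 5 called it and 7 did not. With 1 library left out, the log2 fold change was between 0.22 and 0.33. With DMSO, ISG15 was at 30.1 and 31.8 CPM and with Dox at 27.3 and 28.9 CPM (log2 fold change -0.14, SE 0.080, adjusted p = 0.314, edgeR). Its groups did not overlap there, with Dox lower.

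The changes in the 2 knockdowns were set against each other in the fit of all 8 libraries, in which 2.37% of 13179 genes passed an adjusted p of 0.05. ISG15 was the only one of the 45 members tested that passed. These 45 include members that had too few counts to be tested in the shRNA experiment alone. IRF9, XAF1 and IFI44L, with 0 counts there, had standard errors of 138, 974 and 690 and could not pass. The count is therefore not a fair share to set beside that of all genes. The ISG15 change was higher by 0.40 on the log2 scale in TFAP2C KD (SE 0.099, adjusted p = 0.0467, edgeR). The adjusted p was 0.0255 without TFAP2C KD replicate 1 and 0.00224 without replicate 2, and from 0.102 to 0.238 when 1 of the other 6 libraries was left out. For IFIT1 the difference was 0.30 (SE 0.21, adjusted p = 0.571).

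**Figure D3:**
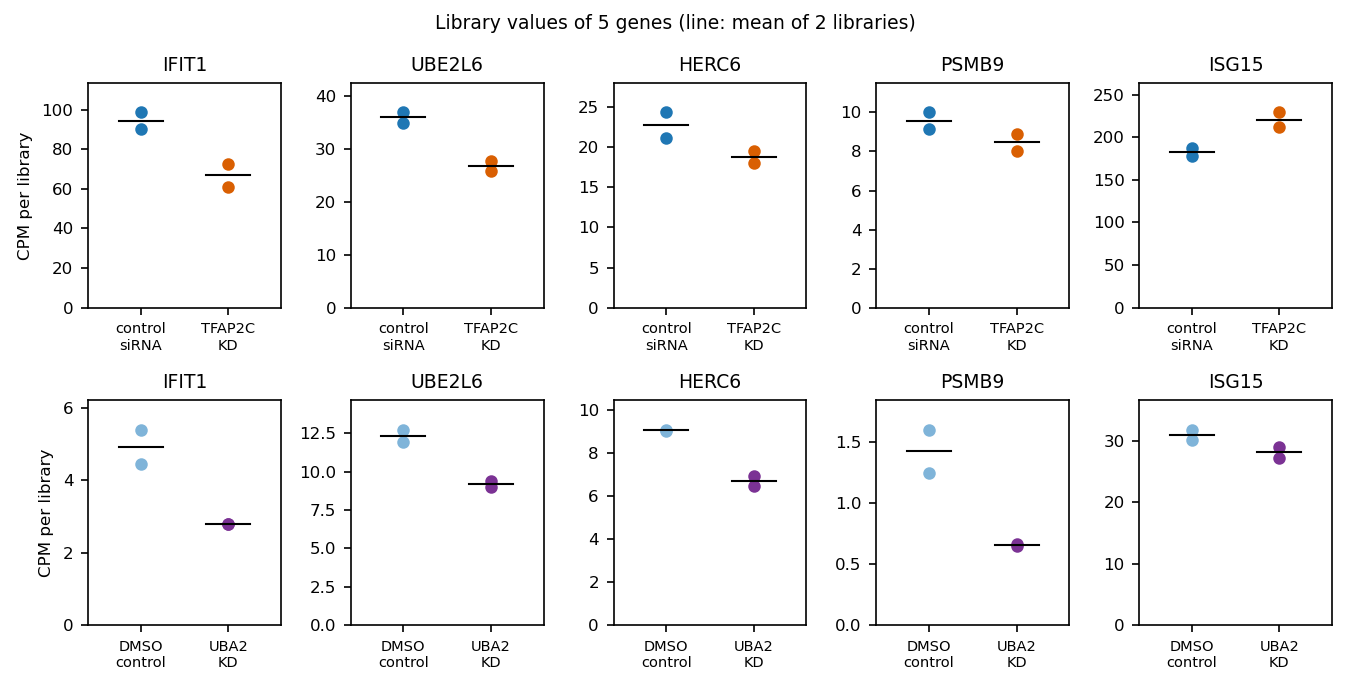
CPM of IFIT1, UBE2L6, HERC6, PSMB9 and ISG15 in each library (points) with the mean of the 2 libraries of a group (line), for the siRNA experiment (top) and the shRNA experiment (bottom). Each axis starts at 0 and has its own scale. The knockdown points lie below the control points in every panel but the top one of ISG15, where they lie above.

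PSMB9 is an inducible subunit of the immunoproteasome, which makes peptides for presentation on MHC class I. It had 244 and 191 counts with control siRNA and 213 and 180 in TFAP2C KD (log2 fold change -0.18, adjusted p = 0.569, edgeR). In the shRNA experiment it had 30 and 26 counts with DMSO and 12 and 12 with Dox. The groups did not overlap, and PSMB9 fell by 53.5% (log2 fold change -1.10, SE 0.35, adjusted p = 0.0382, edgeR). At this depth the interval was wide, from -1.81 to -0.39. Leaving out any of the 4 libraries lost the call, with log2 fold changes from -1.28 to -0.92. The fit of all 8 libraries lost it too (adjusted p = 0.0527, edgeR). The shRNA table gives PSMB9 and PSMB8, its partner, positions on alternative haplotypes of chromosome 6. Reads that align to several copies may have been left out of their counts, which was not tested. PSMB8 had 18 to 19 counts in the libraries of the siRNA experiment (log2 fold change -0.035) and 1 to 5 in the others.

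Of the transcription factors, 0 of 4 tested passed in TFAP2C KD and 0 of 3 in the libraries labelled UBA2 KD with edgeR, also at an unadjusted p under 0.05. DESeq2 called 0 as well, with no adjusted p for IRF7 in the latter. STAT2, which carries the activation domain of the interferon complex, was at 135 and 128 CPM with control siRNA and at 120 and 119 CPM in TFAP2C KD (log2 fold change -0.14, adjusted p = 0.430, edgeR). Its groups did not overlap. With DMSO it was at 46.5 and 48.5 CPM and with Dox at 46.5 and 43.5 CPM (log2 fold change -0.079, adjusted p = 0.556, edgeR). IRF1, an early activator of interferon genes, was at 29.4 and 31.9 CPM with control siRNA and 31.2 and 27.5 CPM in TFAP2C KD, and the groups overlapped. It was at 12.5 and 12.8 CPM with DMSO and 13.5 and 11.5 CPM with Dox, also overlapping. IRF7, which amplifies the production of interferon, was at 45.1 and 48.3 CPM with control siRNA and at 43.1 and 40.6 CPM in TFAP2C KD (log2 fold change -0.16, adjusted p = 0.451, edgeR). With DMSO it was at 3.04 and 2.97 CPM and with Dox at 2.39 and 2.68 CPM (log2 fold change -0.24, adjusted p = 0.547, edgeR). IRF7 was lower in both knockdowns without overlap, but within an interval that includes 0. IRF9 in TFAP2C KD had a log2 fold change of 0.099 (adjusted p = 0.771, edgeR).

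The RNA sensors and the kinase EIF2AK2 had log2 fold changes below 0 throughout, from -0.14 to -0.011 for 5 genes in TFAP2C KD and from -0.16 to -0.031 for 4 genes in the libraries labelled UBA2 KD. EIF2AK2, which stops translation when it binds double-stranded RNA, was at 84.1 and 73.4 CPM with DMSO and at 76.3 and 77.6 CPM with Dox. These groups overlapped. Of the 2-5A synthetases, whose product activates RNase L, OAS3 was by far the most abundant and was at 335 and 336 CPM with control siRNA and at 337 and 308 CPM in TFAP2C KD. With DMSO it was at 75.1 and 68.6 CPM and with Dox at 65.9 and 66.6 CPM (log2 fold change -0.12, adjusted p = 0.289, edgeR). OAS2 had the lowest log2 fold change of the list in TFAP2C KD, -0.53, with 27 and 21 counts against 21 and 13, and its interval from -1.24 to 0.18 includes 0. PARP9, PARP14 and DTX3L, which act together in ADP-ribosylation, were below 0 in both knockdowns, with log2 fold changes from -0.18 to -0.0041 and from -0.14 to -0.080.

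The membrane factors stayed close to their controls in TFAP2C KD. IFITM3 was at 501 and 531 CPM with control siRNA and at 523 and 499 CPM in TFAP2C KD, with overlap (log2 fold change -0.014). IFITM2 was at 103 and 111 CPM and at 98.3 and 101 CPM. Its row in the siRNA table overlaps that of IFITM1 on the same strand, and reads of these similar genes could have been split, so both values are uncertain. BST2 was at 66.6 and 65.2 CPM with control siRNA and at 61.9 and 63.8 CPM in TFAP2C KD (log2 fold change -0.069, adjusted p = 0.737, edgeR). With DMSO, IFITM3 was at 125 and 113 CPM and with Dox at 108 and 107 CPM. These groups did not overlap, but the log2 fold change of -0.14 had an adjusted p of 0.124 (edgeR), and it was 0.0496 with library sizes not scaled by TMM. IFITM2 was at 30.1 and 29.3 CPM with DMSO and at 33.7 and 28.2 CPM with Dox.

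SAMD9, an antiviral factor that acts on translation, showed the spread between the TFAP2C KD libraries most plainly. It was at 69.3 and 58.8 CPM with control siRNA and at 30.5 and 65.7 CPM in TFAP2C KD, so that replicate 1 was low and replicate 2 was within the range of the controls. The log2 fold change was -0.42 (SE 0.24, adjusted p = 0.489, edgeR). Without TFAP2C KD replicate 2 it was -1.07 (adjusted p = 3.22e-34) and without replicate 1 it was 0.033 (adjusted p = 0.905). In the shRNA experiment SAMD9 was at 17.0 and 16.0 CPM with DMSO and at 12.7 and 14.2 CPM with Dox, without overlap (log2 fold change -0.29, SE 0.10, adjusted p = 0.0728, edgeR). MX1, a dynamin-like antiviral GTPase, was at 3.32 and 3.69 CPM with control siRNA and at 3.04 and 2.50 CPM in TFAP2C KD (log2 fold change -0.33, adjusted p = 0.480, edgeR). It had only 5 to 10 counts in the libraries of the shRNA experiment.

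The IFI genes went in different directions in the siRNA experiment, with 3 above 0 and 2 below. IFI6, a protein that blocks apoptosis and virus replication, was at 238 and 245 CPM with control siRNA and at 266 and 255 CPM in TFAP2C KD. Both knockdown libraries were above both controls, with a log2 fold change of 0.11 (adjusted p = 0.519, edgeR). With DMSO it was at 4.11 and 4.36 CPM and with Dox at 3.33 and 3.49 CPM, and both Dox libraries were below (log2 fold change -0.31, adjusted p = 0.317, edgeR). The difference between these changes was 0.41 (SE 0.15, adjusted p = 0.211). IFI27 had 12 and 12 counts with DMSO and 3 and 4 with Dox, the lowest log2 fold change of the list at -1.63 (SE 0.57, adjusted p = 0.0645, edgeR). In the siRNA experiment its log2 fold change was 0.14, from 53.3 and 54.7 CPM to 64.2 and 54.4 CPM, and the difference between the knockdowns had an adjusted p of 0.102. SP100, a nuclear body protein, and TRIM21, an antibody receptor of the cytosol, had log2 fold changes of -0.027 and -0.071 in TFAP2C KD and -0.0088 and -0.29 in the libraries labelled UBA2 KD.

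The remaining members did not pass in the experiments in which they were tested. CMPK2, a nucleotide kinase, and ISG20, an exonuclease that degrades RNA, had log2 fold changes of -0.18 and -0.22 in TFAP2C KD and of -0.11 and -0.097 in the libraries labelled UBA2 KD. RSAD2 (viperin), OASL and IFI35 were above 0 in TFAP2C KD, at 0.025, 0.048 and 0.14, and OASL and IFI35 were at 0.15 and 0.045 in the other knockdown. TRIM22, XAF1, OAS1, IFI44L and IFI44 were tested in TFAP2C KD alone and had -0.37, -0.36, -0.25, -0.23 and -0.12. The 95% intervals of TRIM22 and XAF1 reached from -0.98 to 0.24 and from -1.25 to 0.53, at 10 to 41 counts in a library. IFITM1, a membrane factor like IFITM3, was at -0.0067 in TFAP2C KD and at -0.43 in the libraries labelled UBA2 KD, where it had 8 and 14 counts with DMSO and 4 and 11 with Dox, with overlap.

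For the 33 members tested in both experiments, the log2 fold change was below 0 in both knockdowns for 25 (75.8%), against 26.6% of the 12158 genes tested in both. It was above 0 in both for 2 members and opposite in sign for 6. Most members tested were below 0 in each knockdown taken alone, 38 of 45 and 28 of 33. A high share below 0 in both would therefore arise even if the knockdowns were unrelated. The sizes of the changes were hardly related, with a Pearson correlation of 0.064 across the 33 genes and 0.185 across all genes, and genes are not independent replicates. The experiments share no library.

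**Figure D4:**
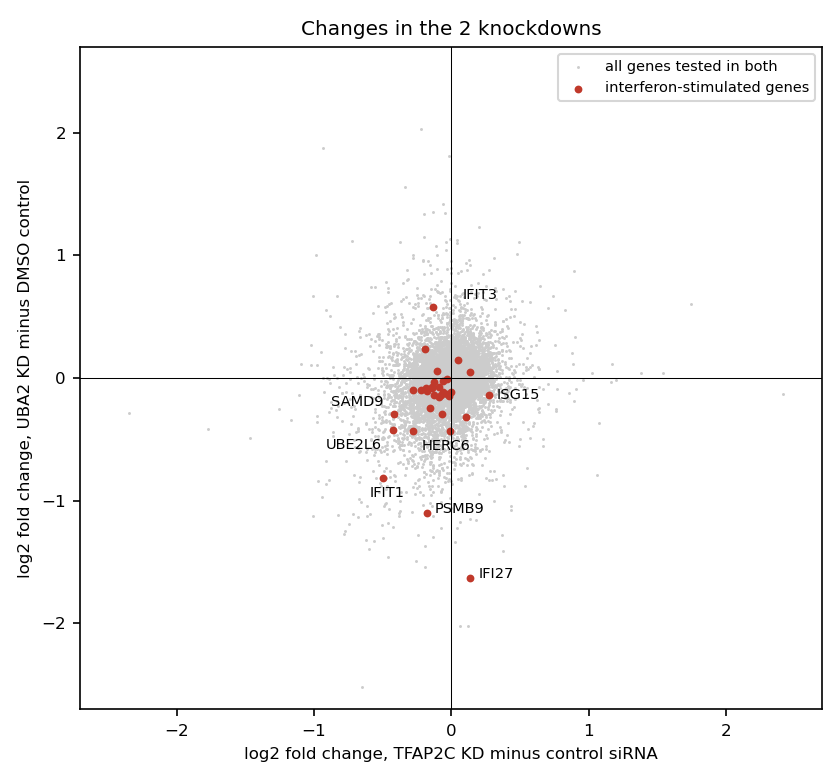
Log2 fold change in UBA2 KD against DMSO control (vertical) plotted over that in TFAP2C KD against control siRNA (horizontal) for genes tested in both experiments. Grey points are all 12158 genes and red points the 33 interferon-stimulated genes, of which 25 lie to the lower left of both zero lines.

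Other genes of the pathway were counted from a list of 57 ligands, receptors, kinases, regulators, sensors and further interferon-induced genes. In TFAP2C KD, 0 of the 46 tested passed with edgeR and 0 of those that DESeq2 adjusted, with 1 lower and 1 higher at an unadjusted p under 0.05 in edgeR, and the median log2 fold change was -0.022. Without TFAP2C KD replicate 2, 8 passed, in a fit that called 2825 genes in all. In the libraries labelled UBA2 KD, 2 of the 45 tested fell and 2 rose, which is no more than the 9.98% called among all genes, and the median was 0.0010. SP110, a nuclear body protein, was at 9.03 and 8.77 CPM with DMSO and at 4.77 and 6.12 CPM with Dox (log2 fold change -0.70, adjusted p = 0.000924, edgeR). TRIM5, which restricts retroviruses, was at 21.5 and 22.0 CPM and at 14.5 and 16.3 CPM (log2 fold change -0.50, adjusted p = 0.000491, edgeR). TRIM25, a ubiquitin ligase in the RIG-I pathway, rose from 255 and 239 CPM to 292 and 278 CPM (log2 fold change 0.21, adjusted p = 0.00417, edgeR). LGALS3BP, a secreted glycoprotein, rose from 262 and 260 CPM to 299.8 and 279 CPM (log2 fold change 0.15, adjusted p = 0.0420, edgeR).

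The receptors and kinases of type I interferon did not pass in either knockdown. IFNAR1 and IFNAR2 had log2 fold changes of -0.029 and -0.12 in TFAP2C KD and of 0.055 and -0.12 in the libraries labelled UBA2 KD. JAK1 and TYK2 had -0.010 and 0.020 in the former and 0.13 and -0.040 in the latter, with an adjusted p of 0.154 (edgeR) for JAK1 there. IFNAR1 was at 44.3 and 40.1 CPM with control siRNA and at 81.4 and 82.8 CPM with DMSO, values from tables that were counted separately. Of the 7 ligands, 6 had too few counts to be tested in either experiment. IFNB1, the main early interferon, had at most 1 count in a library. IFNL1 had 6 to 10 counts in the libraries of the siRNA experiment and at most 1 in those of the shRNA experiment. IFNE, the ligand that was tested, had log2 fold changes of -0.70 (adjusted p = 0.495, edgeR) and -0.56 (adjusted p = 0.285, edgeR).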

How the data were processed

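mRNA was sequenced as single-end reads from HCT116 cells in 4 groups of 2 libraries, grouped by the sample labels. Per the methods and the submitters' processing notes, the authors aligned reads with TopHat2 to hg19 and counted them on RefSeq genes with HTSeq (0.9.1). They deposited read counts per gene without normalization, 1 table for each experiment. The table of the siRNA experiment carries GRCh38 positions and Ensembl gene types, unlike the methods, and the strand setting is not given in the sources used here. The experiments were therefore tested separately. Every count column was used, and 0 columns were left unmapped.

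With edgeR 4.0.16 in R 4.3.3, low genes were removed by filterByExpr, libraries were scaled by TMM and groups were compared by the quasi-likelihood test, two-sided, with Benjamini-Hochberg adjustment over all genes tested. A fit of all 8 libraries over the shared symbols tested the difference between the knockdowns, with 1 estimate of spread per gene for both experiments. An exact rank test on a single gene with 2 libraries against 2 cannot reach 0.05. CPM were divided by the gene length in the table for RPKM. The standard error of a change is its size over the square root of F. DESeq2 1.42.0 (Wald test), other scalings and filters, the replicate block and each library left out were alternatives. edgeR runs on limma 3.58.1, and plots were drawn with matplotlib 3.10.9. The tests were checked on simulated data in which 200 genes changed by 1 on the log2 scale, with the same dispersion for every gene. Of these, 91.7% were found for TFAP2C KD, 93.5% for UBA2 KD and 84.4% for the difference. Smaller changes, which most members had, were not simulated, nor was a spread that differs between genes.

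The members and the other lists were chosen with earlier results of these data known. Values per library are given for members with an adjusted p under 0.05 in either experiment, the 4 with the largest change at a mean log2 CPM of at least 1, the 5 with the highest RPKM in each control group, and STAT2, IRF9, IRF1, IRF7, ISG15 and IFIT1. Other members, IFIT3, IFI27, OAS2, OAS3 and PSMB8 among them, were given values after these had been seen. Promoter windows came from RefSeq (GRCh38.p14) by symbol.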

Additional observations from a re-analysis of the deposited data

Results flagged for a closer look

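ISG15 is singled out because its change differed between the knockdowns by a test of the difference itself. That test used 1 estimate of spread per gene for both experiments, though their biological coefficients of variation were 6.28% and 3.56%. In the same fit 271 of 13179 genes passed in TFAP2C KD, against 111 of 14991 in its own experiment. The part of the shared spread in the ISG15 result was not tested. In the fit of all 8 libraries the change in TFAP2C KD (log2 fold change 0.27 in its own experiment) was higher by 0.40 than that in the libraries labelled UBA2 KD (-0.14), with a standard error of 0.099 and an adjusted p = 0.0467 (edgeR). As 1 of 45 members passed, beside 2.37% of all genes, the count does not set the members apart. Some of the 45 could not pass, for want of counts in the shRNA experiment. All 4 knockdown libraries lay outside the range of their own controls, above in the siRNA experiment and below in the shRNA experiment. The difference was between 0.36 and 0.46 in 13 alternatives and no longer passed in 7 of them. The tables list other genes over ISG15 in the siRNA experiment, AL645608.1 among them, and none in the shRNA experiment, and the part of this in the result was not tested.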

How the results depend on the processing

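The number of members that passed depended on the processing. In TFAP2C KD it was 1, and 0 with library size only, 4 without a filter, 3 with the replicate block, 3 with all 8 libraries in 1 fit and 0 to 12 when a library was left out, the highest without TFAP2C KD replicate 2 and the lowest without control siRNA replicate 1. The labels do not say whether same-numbered libraries share more than a number. Their deviations correlated at -0.139 in the siRNA experiment and 0.0742 in the shRNA experiment, which cannot settle whether they were paired. A crossed pairing in the former, added after seeing the data, also gave 3. In the libraries labelled UBA2 KD it was 4, and 0 with the Wald test of DESeq2 (which gave no adjusted p for 11 members), 6 with library size only, 2 with all 8 libraries in 1 fit, 5 with the replicate block and 1 to 3 when a library was left out. For the difference between the knockdowns it was 1, and 2 without a filter, 0 with the replicate block (ISG15, adjusted p = 0.148) and 0 to 3 when a library was left out. Of the other pathway genes, 0 passed in TFAP2C KD, and 0 to 8 when a library was left out, with 8 without TFAP2C KD replicate 2. The median log2 fold change of the members stayed below 0 in all alternatives, with -0.15 for TFAP2C KD by library size only, -0.15 to -0.064 when a library was left out, and -0.17 to -0.096 for UBA2 KD. Among named genes, 276 of 323 values kept direction and side of the threshold, 7 changed sign, 24 lost the call and 16 gained it. The sign changed when a library was left out for IFITM3 (-0.055 to 0.022), SAMD9 (-1.07 to 0.033) and IRF1 (-0.15 to 0.031) in TFAP2C KD, and for EIF2AK2 (-0.13 to 0.069), IFITM2 (-0.071 to 0.19) and IRF1 (-0.14 to 0.087) in UBA2 KD. Where a library is left out, the lone library of its group is assumed to vary like the other group. The cause of these shifts was not tested. Depth limits the members with few counts, 12 to 15 of which had under 10 counts in a library of the shRNA experiment.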
